A study of Rattus norvegicus with 6 samples.

Results

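Viperin (Rsad2), tetherin (Bst2) and 6 other interferon-stimulated effector genes (Cmpk2, Ifi35, Ifi44, Xaf1, Gbp2 and Ifi47) were followed in libraries labelled as rat PC12 cells, with and without PCBP-1 overexpression. The 8 genes were chosen by name with their PCBP1-OE and control counts already known, so every difference between the groups given for them is a description and not a test. All 8 were found among the 20609 genes of the count table, 7 by exact symbol and Xaf1 as XAF1 in capitals. All 8 were also among the 12624 genes that passed the filter on low counts.

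The libraries are labelled as PC12, a line from a rat pheochromocytoma of the adrenal medulla. The control group (n = 3) received a control plasmid and the PCBP1-OE group (n = 3) a plasmid for EGFP-tagged PCBP-1; no source used here says whether the control plasmid carries EGFP, and the methods give a harvest time after transfection for RT-qPCR without naming RNA-seq. In its introduction the study describes stable overexpression, but its methods describe plasmid transfection, so which kind was sequenced is not settled. The study calls the libraries of a group biological replicates, but the labels do not say whether they came from separate cultures. The error thus measures the spread between these libraries, which may be technical. Poly-A RNA was sequenced, and each library held 19730209 to 22315623 counts on genes. The PCBP-1 gene is not analysed here, so whether it was overexpressed remains unchecked in these libraries.

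The labelled cell type was checked against 8 chromaffin markers. Scg2 had 2607 to 3553 counts per library and Th, the rate-limiting enzyme of catecholamine synthesis, 141 to 185, but Chga had 0 to 3, Dbh 0 to 5, Ddc 0 to 4, Chgb 0 to 9, Pnmt 0 to 1 and Slc18a1 17 to 28. Chromogranin A, Chgb, Dbh, Ddc and Pnmt were thus at or near 0 in all 6 libraries. These markers do not bear out the labelled cell type, and the identity of the cells remains in doubt. Summed CPM (counts relative to the TMM-scaled library size) of these 8 markers was 151 to 180 in controls and 138 to 153 in PCBP1-OE. Of 4 fibroblast markers, 2 were matched, with 223 to 229 CPM in controls and 199 to 211 in PCBP1-OE; nearly all of it was Pdgfra, at 3939 to 4941 counts. For leukocyte markers, 5 of 7 were matched, at 6.87 to 7.86 CPM in controls and 6.18 to 6.35 in PCBP1-OE, with Ptprc at 0 to 3 counts. All 4 glial markers summed to 12.3 to 13.8 and 10.9 to 12.3 CPM, and 2 of 3 endothelial markers to 0.268 to 0.383 and 0.227 to 0.545 CPM. The fibroblast and leukocyte sums were lower in all PCBP1-OE libraries than in all controls. Most of the fall lay in Pdgfra (mean 223 and 203 CPM) and Cd68 (3.61 and 2.81 CPM). Col1a1 was at 3.16 and 3.38 CPM, and the groups overlapped for Cd3e, Ptprc, Itgam and Csf1r. The sums thus do not show a change in cell types, and their part in the results was not tested.

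As background, type I interferons act through JAK kinases to assemble ISGF3, a complex with STAT2 and IRF9 that binds the interferon-stimulated response element (ISRE). Interferon gamma acts mainly through the gamma-activated site (GAS). The effectors studied here work at different steps against a virus. Viperin is a radical SAM enzyme that turns CTP into a chain-terminating nucleotide, and CMPK2 is a mitochondrial kinase of pyrimidine nucleotides. Tetherin holds budding virions at the cell surface. IFI35 and IFI44 are cytosolic interferon-induced proteins, IFI35 being a partner of NMI. XAF1 binds the apoptosis inhibitor XIAP. GBP2 belongs to the guanylate-binding proteins and IFI47 to the immunity-related GTPases, which are interferon-induced GTPases that act on intracellular pathogens.

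Promoter windows of all 8 genes, from 250 bases before to 50 bases from each start, were taken from RefSeq (build GRCr8) and searched for the elements through which interferons are known to act. The 7 windows with an ISRE core of either form are shown, 2 of them whole, since these cores are the element that most of the 8 genes hold. Each is written 5' to 3' on the strand of its gene, with matches in capitals. The ISRE core was searched as GAAANNGAAA, or TTTCNNTTTC on the other strand, and the GAS core as TTCNNNGAA. A form of the ISRE core with a 1-base spacer, GAAANGAAA or TTTCNTTTC, was added after the sequences had been seen. The first lines give Rsad2 (chr6:48788071-48788370, minus strand) and Cmpk2 (chr6:48802600-48802899, plus strand), which lie next to each other and are read in opposite directions away from the stretch between them:
Rsad2: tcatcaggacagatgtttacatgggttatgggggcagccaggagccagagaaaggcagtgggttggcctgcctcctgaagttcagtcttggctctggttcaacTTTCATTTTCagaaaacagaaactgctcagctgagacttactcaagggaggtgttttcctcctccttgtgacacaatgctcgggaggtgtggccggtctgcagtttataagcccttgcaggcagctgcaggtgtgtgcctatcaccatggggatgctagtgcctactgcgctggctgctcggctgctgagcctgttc
Cmpk2: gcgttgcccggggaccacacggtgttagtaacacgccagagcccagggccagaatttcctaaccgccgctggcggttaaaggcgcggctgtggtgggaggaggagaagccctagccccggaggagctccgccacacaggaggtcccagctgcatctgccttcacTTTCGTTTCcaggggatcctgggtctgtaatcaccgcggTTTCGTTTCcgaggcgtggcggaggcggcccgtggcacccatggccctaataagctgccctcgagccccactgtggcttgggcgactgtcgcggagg

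The Rsad2 window held 1 ISRE core with a 2-base spacer, beginning 147 bases before the start. The Cmpk2 window held none of that form and 2 copies with a 1-base spacer, 86 and 47 bases before the start. The other windows are shown around their matches, for Bst2 (chr16:18255058-18255129, minus strand), Ifi35 (chr10:86881221-86881279, plus strand), Ifi44 (chr2:243303791-243303891, minus strand), Xaf1 (chr10:57415899-57415958, plus strand) and Gbp2 (chr2:234005671-234005730, plus strand):
Bst2: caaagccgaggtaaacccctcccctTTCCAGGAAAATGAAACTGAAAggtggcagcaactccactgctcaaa
Ifi35: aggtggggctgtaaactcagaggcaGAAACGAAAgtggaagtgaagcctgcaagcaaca
Ifi44: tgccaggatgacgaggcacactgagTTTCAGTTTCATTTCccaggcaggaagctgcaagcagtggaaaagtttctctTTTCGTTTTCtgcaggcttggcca
Xaf1: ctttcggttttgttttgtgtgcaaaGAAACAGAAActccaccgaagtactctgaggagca
Gbp2: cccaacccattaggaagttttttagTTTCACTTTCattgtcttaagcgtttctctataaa

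The ISRE core with a 2-base spacer was found in 5 of the 8 windows (Rsad2, Bst2, Ifi44, Xaf1 and Gbp2) and in 3.92% of all 33469 windows of the same length in the table. The 1-base form was found in 3 of 8 (Cmpk2, Ifi35 and Ifi44) and in 3.50% of all windows. Bst2 held 2 overlapping ISRE cores, 131 and 125 bases before the start, the first of which overlaps a GAS core at 137 bases. In Ifi44 the cores lay 26 bases before the start and 27 bases into the transcript, and a 1-base form overlapped the first of them. The cores of Gbp2, Ifi35 and Xaf1 lay 31, 24 and 11 bases before the start. Ifi47 held GAS cores at 212 and 96 bases before the start and no ISRE core of either form; the GAS core was found in 2 of the 8 windows (Bst2 and Ifi47) and in 8.87% of all windows. A match is only a run of letters, and its use in these cells was not tested.

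Of the 8 effectors, viperin and Ifi44 stood out as higher in PCBP1-OE, by 1.84-fold and 1.45-fold between group means. Cmpk2, Ifi35, Xaf1 and Gbp2 lay 1.08-fold to 1.21-fold above controls, tetherin was nearly level at 1.03-fold, and Ifi47 was lower at 0.717-fold on few counts. The median log2FC (log2 fold change of PCBP1-OE over control, given with its standard error, SE, for single genes) of the 8 was 0.15, beside 0.0029 over all 12624 genes tested. At an FDR of 0.05 in edgeR's quasi-likelihood test 2 of the 8 were called higher, Rsad2 and Ifi44, and 4.45% of all genes tested were called higher. The groups did not overlap, with PCBP1-OE higher, in 3 of the 8 (Rsad2, Ifi35 and Ifi44) and in 14.1% of all genes tested. Because the genes had been chosen with this comparison known, nothing is read from these counts.

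**Figure D1:**
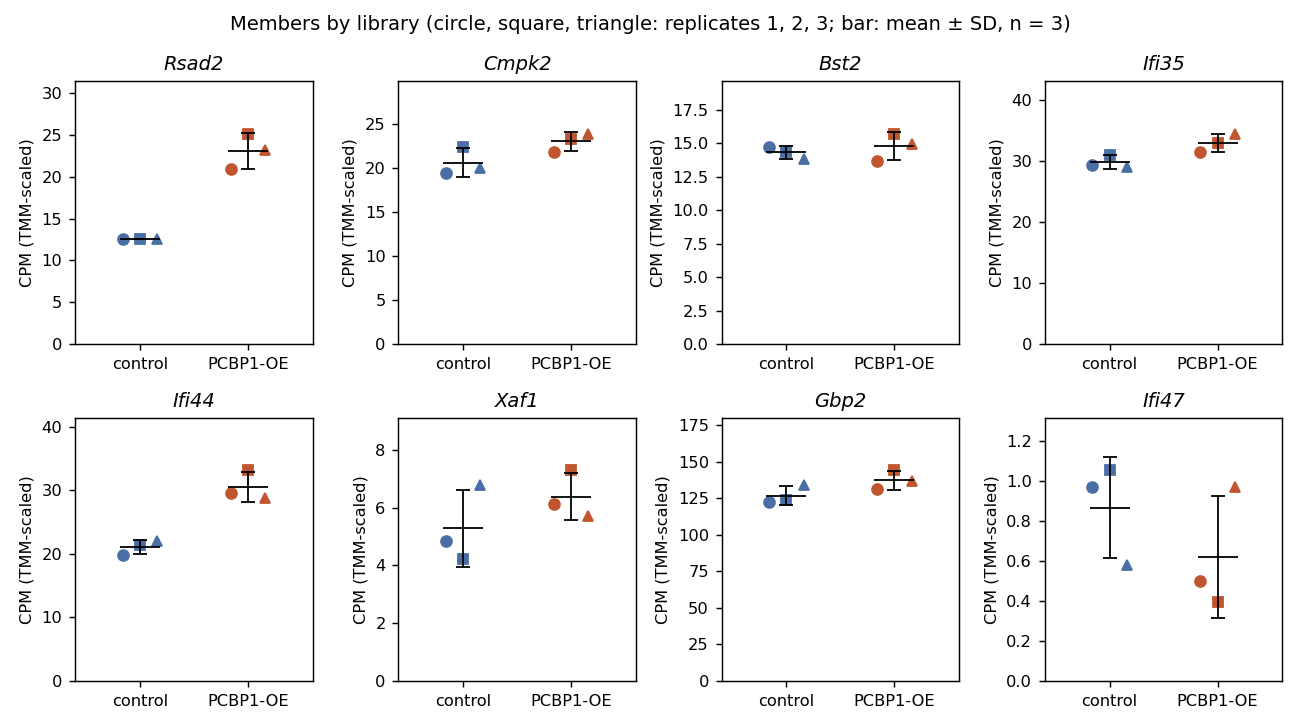
Expression of the 8 genes in each library, in TMM-scaled CPM on linear axes that start at 0, for controls (blue) and PCBP1-OE (orange); symbols mark replicates 1 to 3 and bars the mean ± SD (n = 3). Rsad2 sits between 12.5 and 12.6 CPM in controls and between 20.9 and 25.1 in PCBP1-OE, whereas Bst2 covers nearly the same range in both groups.

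Rsad2 (ENSRNOG00000007539, chromosome 6) was at 12.5, 12.6 and 12.5 CPM in the 3 controls and at 20.9, 25.1 and 23.1 CPM in the 3 PCBP1-OE libraries. The controls were almost identical, and every PCBP1-OE library lay far above them. The means were 12.5 ± 0.0110 and 23.1 ± 2.11 CPM (SD, n = 3 each), which gave a log2FC of 0.88 (SE 0.09, 95% interval 0.68 to 1.08). The counts behind these values were 246 to 281 per control and 453 to 507 per PCBP1-OE library.

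Cmpk2 (ENSRNOG00000007690, chromosome 6), the neighbour of Rsad2, was at 19.4, 22.5 and 20.1 CPM in controls, against 21.9, 23.4 and 23.9 CPM in PCBP1-OE. Control replicate 2 lay above PCBP1-OE replicate 1, so the groups overlapped. The means of 20.7 ± 1.603 and 23.1 ± 1.07 CPM (SD, n = 3 each) gave a log2FC of 0.16 (SE 0.09, 95% interval -0.026 to 0.34). The number of Rsad2 counts per Cmpk2 count, which does not depend on library scaling, was 0.646, 0.559 and 0.624 in controls, against 0.956, 1.07 and 0.966 in PCBP1-OE. This ratio was 1.64-fold higher in PCBP1-OE, with every PCBP1-OE library above every control. The same kind of ratio for Ifi44 per Ifi44l, at 0.800-fold, and for Gbp2 per Gbp5, at 0.921-fold, overlapped between the groups.

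Bst2 (ENSRNOG00000059900, chromosome 16) was at 14.7, 14.4 and 13.8 CPM in controls, against 13.7, 15.7 and 14.96 CPM in PCBP1-OE. PCBP1-OE replicate 1 had the lowest value of all 6 libraries and the groups overlapped. The log2FC of tetherin was 0.047 (SE 0.09), and its 95% interval of -0.16 to 0.25 did not reach the log2FC of Rsad2. Bst2 and Ifi44 each held 2 ISRE cores with a 2-base spacer.

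Ifi44 (ENSRNOG00000022218, chromosome 2) was at 19.8, 21.4 and 21.9 CPM in controls, against 29.6, 33.1 and 28.7 CPM in PCBP1-OE, with no overlap. The means were 21.0 ± 1.12 and 30.5 ± 2.32 CPM (SD, n = 3 each), which gave a log2FC of 0.53 (SE 0.08, 95% interval 0.36 to 0.71). Ifi35 (ENSRNOG00000020678, chromosome 10) was at 29.4, 31.1 and 29.0 CPM in controls, against 31.5, 33.0 and 34.5 CPM in PCBP1-OE. Its groups did not overlap either, but control replicate 2 and PCBP1-OE replicate 1 were close to each other. The log2FC of Ifi35 was 0.15 (SE 0.07, 95% interval 0.0024 to 0.29).

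Xaf1 (ENSRNOG00000037371, chromosome 10) was at 4.84, 4.22 and 6.78 CPM in controls, against 6.13, 7.29 and 5.72 CPM in PCBP1-OE. Control replicate 3 lay above PCBP1-OE replicates 1 and 3. The log2FC of 0.27 (SE 0.18, 95% interval -0.13 to 0.66) rose to 0.49 without control replicate 3 and fell to 0.13 without control replicate 2. The RefSeq table places Xaf1 beside Fbxo39 with overlapping ends, and no source used here gives the strand setting of the authors' counting, which leaves reads of the overlap uncertain.

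Gbp2 (ENSRNOG00000031743, chromosome 2) was at 122, 124 and 134 CPM in controls, against 131, 144 and 137 CPM in PCBP1-OE. Control replicate 3 lay between PCBP1-OE replicates 1 and 3. Its log2FC was 0.12 (SE 0.05, 95% interval 0.0056 to 0.23). Ifi47 (ENSRNOG00000002470, chromosome 10) was covered by 19, 22 and 13 counts in the 3 controls, against 11, 8 and 19 with PCBP1-OE, which is 0.580 to 1.05 CPM and 0.396 to 0.970 CPM. The groups overlapped, and the log2 fold change of -0.48 (SE 0.40, 95% interval -1.35 to 0.39) was not resolved at this depth. Both genes belong to families with similar copies, whose reads may not have been kept apart by the authors' counting.

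**Figure D2:**
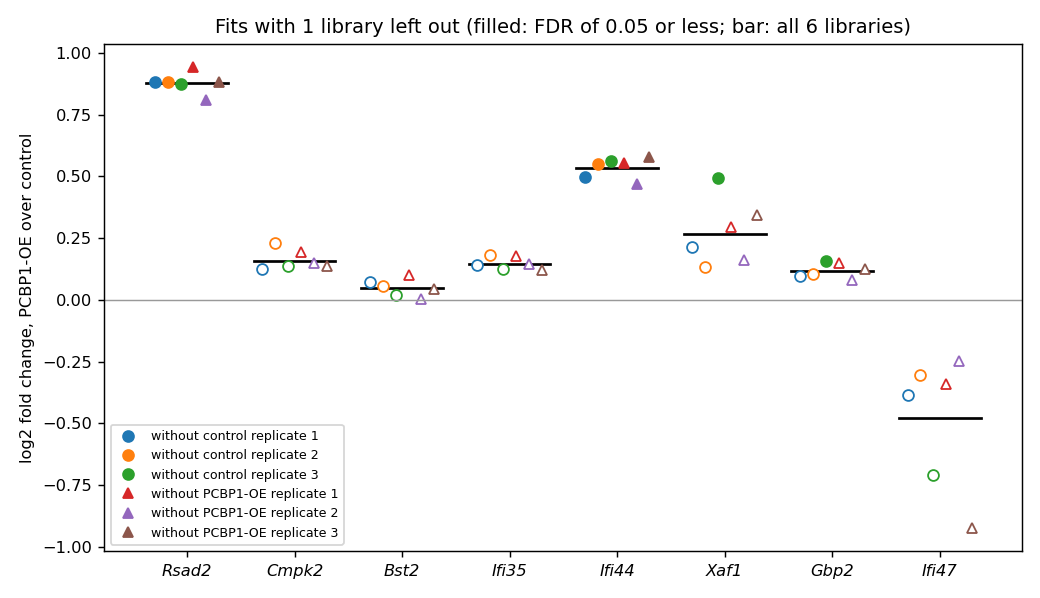
Log2 fold change of each gene with 1 library left out in turn (circles without a control, triangles without a PCBP1-OE library; filled where the FDR was 0.05 or less), with black bars for all 6 libraries. Rsad2 stays between 0.81 and 0.94 and Ifi44 between 0.47 and 0.58, whereas Xaf1 moves from 0.13 to 0.49 and Ifi47 from -0.92 to -0.25.

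With each library left out in turn, Rsad2 and Ifi44 were called higher in 6 of 6 fits. Without control replicate 3, Gbp2 and Xaf1 were called higher as well, which made 4 of the 8, and 10.9% of all genes tested were then called higher. Tetherin had log2FC values of 0.0020 to 0.10 in these fits and was not called in any of them. For Cmpk2 they were 0.12 to 0.23 and for Ifi35 0.12 to 0.18.

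How far the effectors varied together was described within the groups, where the difference between control and PCBP1-OE plays no part. Deviations from the group mean of log2(CPM + 1) were correlated over the 6 libraries, for 28 pairs of the 8 genes. The median Pearson's r was 0.30 and the mean 0.22, and 19 of 28 pairs were above 0. Over all pairs of the 12624 genes tested the mean was 4.1e-04. Scaling and centring hold that mean near 0, and no other sets of 8 genes were drawn. It therefore cannot say whether the effectors varied together more than other genes. The points share library depth and scaling, and with 3 libraries per group they hold few independent values, so these are descriptions. Rsad2 and Bst2 had the highest r, 0.90, followed by Cmpk2 and Ifi35 with 0.89 and Xaf1 and Gbp2 with 0.83. Rsad2 and its neighbour Cmpk2 had an r of 0.40. Ifi47 went against Xaf1, with an r of -0.85, and against Ifi44, with -0.71, but with Ifi35 it had an r of 0.75.

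The deviations were also counted library by library. In PCBP1-OE replicate 1 the deviation was below the group mean for 8 of the 8 genes, and in PCBP1-OE replicate 2 it was above for 7 of 8, Ifi47 being the exception. Rsad2 was 0.13 below its group mean in replicate 1 and 0.12 above it in replicate 2, on the log2(CPM + 1) scale. PCBP1-OE replicate 3 had 5 of the 8 genes above the group mean, and control replicates had 3, 6 and 3. Deviations from a mean of 3 libraries cancel within each group, so low values in replicate 1 force higher ones in the others. The share of all genes above the mean in each library was not taken, so nothing is read from these counts.

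**Figure D3:**
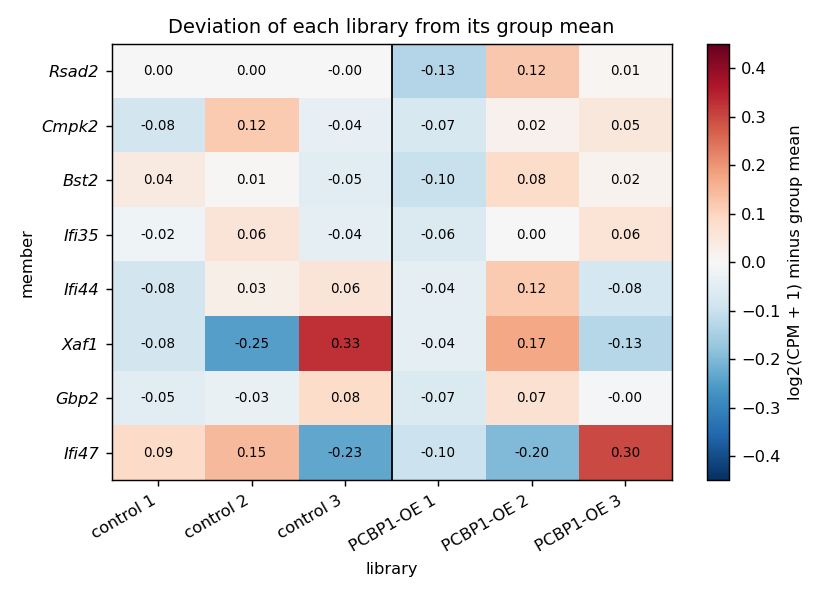
Deviation of each gene from its group mean in each library, in log2(CPM + 1); red is above and blue below the group mean, and the black line parts controls from PCBP1-OE. PCBP1-OE replicate 1 is blue for all 8 genes, and the deepest colours belong to Xaf1 and Ifi47, which have the fewest counts.

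Relatives and partners of the effectors were taken from lists, and each gene was judged in the same edgeR fit. All lists were chosen with earlier results of these data known. Their counts of called genes and their adjusted p-values are thus descriptions and not tests. Of 13 GBP and IRG GTPases, the families of Gbp2 and Ifi47, 8 were matched and 7 had enough counts. Beside 4.45% of all genes tested called higher, only Igtp, an immunity-related GTPase, was called here, and it was higher. It was at 14.7, 16.5 and 18.6 CPM in controls, against 22.2, 25.7 and 22.8 CPM in PCBP1-OE, without overlap, which gave a log2FC of 0.50 (SE 0.10, adjusted p = 0.0137). The call of Igtp held in 3 of 6 fits with 1 library left out (adjusted p = 7.4e-04 to 0.0785). Gbp4 and Gbp5, the nearest tested genes on 1 side of Gbp2, had log2FC values of 0.40 (SE 0.18) and 0.23 (SE 0.09) and were not called. Gbp3, on the other side of Gbp2, had the largest uncalled difference of the list, -0.43 (SE 0.31, adjusted p = 0.383, edgeR). The median of these 7 genes was 0.16.

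Among 38 other antiviral effectors, 36 were matched and 32 tested; 9 were called, all of them higher, and 23 were not, with a median log2 fold change of 0.14. Over all genes tested 4.45% were called higher and 5% lower. At an unadjusted p under 0.05 there were 16 genes of the list in either direction. The share of all genes at that p was not taken, so nothing is read from this count. DESeq2 called 9 of the list, all higher, beside 5.8% of all genes it tested called higher. Rtp4, an interferon-induced chaperone, was at 5.51, 5.99 and 5.57 CPM in controls, against 10.1, 11.4 and 10.2 CPM in PCBP1-OE, which gave a log2FC of 0.89 (SE 0.12, adjusted p = 0.00266, edgeR). Eif2ak2, the double-stranded-RNA-activated kinase PKR, was at 79.2, 81.1 and 79.3 CPM in controls, against 101, 110 and 95.5 CPM in PCBP1-OE, which gave a log2FC of 0.36 (SE 0.05, adjusted p = 0.00485, edgeR). Rtp4 and Eif2ak2 were called in 6 of 6 fits with 1 library left out, with adjusted p of up to 0.0240 and 0.0477.

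Helz2, a helicase-domain coactivator, rose by 0.88 on the log2 scale (SE 0.24, adjusted p = 0.0405, edgeR) from 42 to 56 counts per control to 64 to 124 per PCBP1-OE library, and was called in 2 of 6 such fits (adjusted p = 0.0264 to 0.179). Adar, an RNA-editing adenosine deaminase, rose by 0.50 (SE 0.10, adjusted p = 0.0142, edgeR) and was called in 3 of 6 (adjusted p = 0.00645 to 0.0835). Ifi27 and the nuclear body gene Sp110 rose by 0.31 and 0.28, each called in 4 of 6. Isg20, Lgals3bp and Slfn2 completed the 9. Ifi44l, the relative and neighbour of Ifi44, had a log2FC of 0.78 (SE 0.30, adjusted p = 0.105, edgeR) on 14 to 41 counts per library and was not called. The Ifitm genes, which block viral entry, lay on the other side, with log2FC values of -0.26 for Ifitm1, -0.31 for Ifitm2 and -0.13 for Ifitm3, none of them called. The count of 9 moved with single libraries: leaving out control replicate 1, 2 or 3 gave 6, 2 or 13, and leaving out PCBP1-OE replicate 1, 2 or 3 gave 4, 2 or 9. The 13 were 12 higher and 1 lower, and the others were all higher. The share of all genes called higher in these fits was 1.3%, 0.281% and 10.9% without control replicates 1 to 3 and 0.798%, 0.686% and 2.63% without PCBP1-OE replicates 1 to 3.

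**Figure D4:**
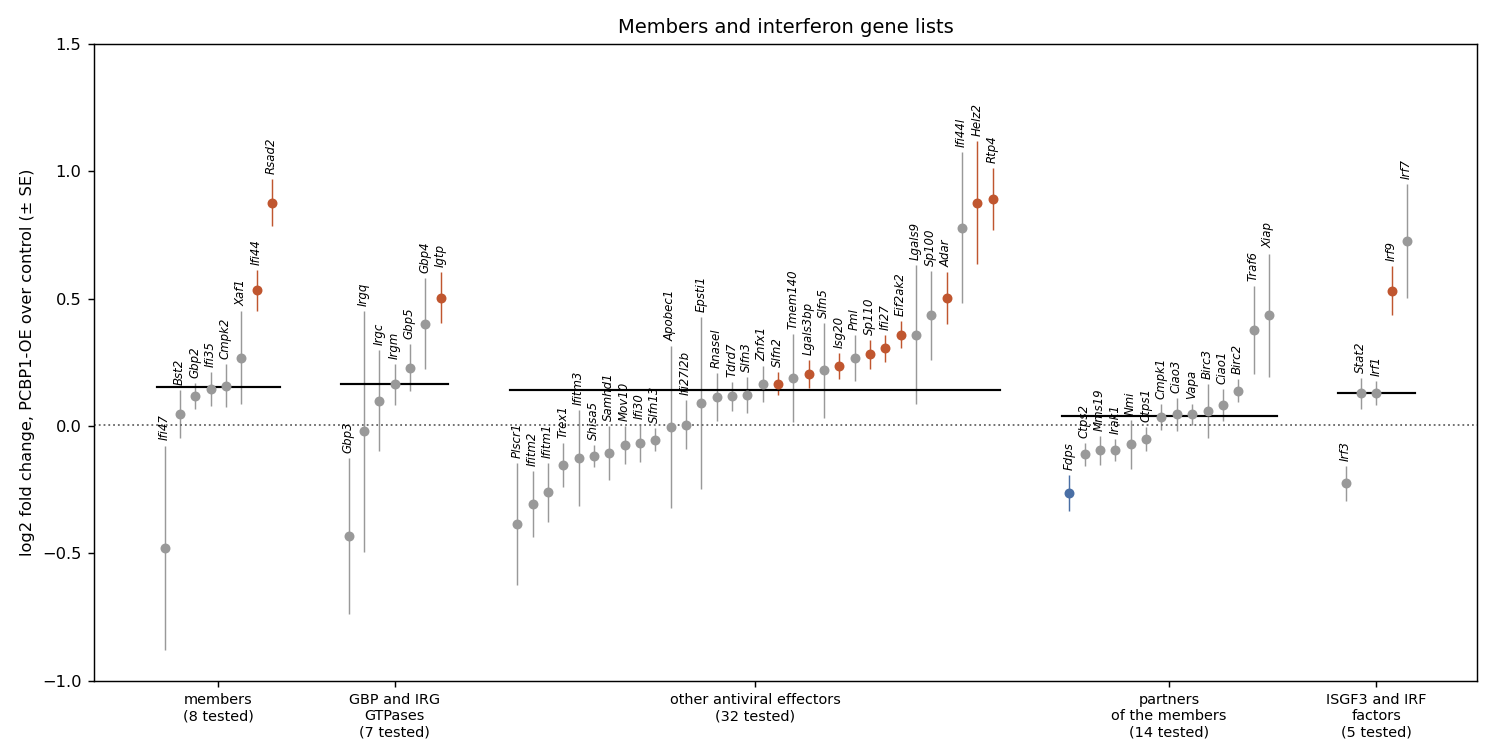
Log2 fold change (± SE) of the 8 effectors and of the tested genes of 4 lists, sorted within each list; orange marks genes called higher and blue genes called lower at an FDR of 0.05, black bars the list medians and the dotted line the median of all genes. Rtp4 at 0.89 and Helz2 at 0.88 lie level with Rsad2 at 0.88, and the median of the partners, 0.040, lies near the dotted line while single partners run from -0.26 to 0.43.

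Transcription factors of the interferon response were taken as a list of 5 ISGF3 and IRF genes, all tested. Of these 1, Irf9, was called, and it was higher, beside 4.45% of all genes tested called higher. Irf9, the DNA-binding part of ISGF3, was at 22.9, 23.0 and 25.2 CPM in controls, against 29.3, 38.8 and 35.0 CPM in PCBP1-OE, without overlap. It rose by 0.53 on the log2 scale (SE 0.10, adjusted p = 0.00978, edgeR), from 23.7 ± 1.27 to 34.4 ± 4.76 CPM (SD, n = 3 each), and was called in 4 of 6 fits with 1 library left out (adjusted p = 9.9e-04 to 0.0692). Irf7 had a log2FC of 0.73 (SE 0.23) and an adjusted p of 0.0593, and was called in 1 of the 6. Stat2, another part of ISGF3, had a log2FC of 0.13 (SE 0.06, adjusted p = 0.188, edgeR). Irf1 and Irf3 had log2FC values of 0.13 (SE 0.05) and -0.22 (SE 0.07) and were not called. The number called in this list was 0 without control replicate 2 or PCBP1-OE replicate 2, and 3 without control replicate 3, of which 2 were higher and 1 lower. The share of all genes called higher was 0.281% and 0.686% in the first 2 of these fits and 10.9% in the last. The median of the 5 was 0.13.

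The interferon genes themselves were hardly counted. Of 10 ligand genes 5 were matched, and 4 of these had at most 5 counts in any library. Ifnb1, the beta interferon, had 0, 0 and 1 counts in controls, against 5, 1 and 1 in PCBP1-OE, where a count of 0 allows up to 3 counts. It did not pass the filter on low counts, so a difference was not tested, and these few counts do not settle whether there was one. Ifne, with 12 to 17 counts per library, had a log2FC of 0.18 (SE 0.32, adjusted p = 0.750, edgeR).

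Over all genes tested 5% were called lower and 4.45% higher. Of 14 partners of the effectors, all tested, 1 was called and it was lower. This was Fdps, the farnesyl diphosphate synthase that viperin is known to bind, at 221, 218 and 178 CPM in controls, against 174, 164 and 177 CPM in PCBP1-OE, which gave a log2FC of -0.26 (SE 0.07, adjusted p = 0.0383, edgeR). Control replicate 3 lay close to the PCBP1-OE libraries, and Fdps was called in 1 of 6 fits with 1 library left out (adjusted p = 1.9e-04 to 0.206). Nmi, the partner of Ifi35, had a log2FC of -0.072 (SE 0.10) and the CTP synthases Ctps1 and Ctps2 had -0.052 and -0.11. Xiap, the partner of Xaf1, had 0.43 (SE 0.24, adjusted p = 0.262, edgeR) on 27 to 56 counts per library. The median of the 14 was 0.040.

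Genes next to the effectors were compared to see whether a difference extended along the chromosome. The nearest tested gene on each side was taken in RefSeq order, which gave 14 genes other than the 8 effectors. Of these, 1 was called and it was lower, beside 5% of all genes tested called lower and 4.45% called higher. The gene called was Mvb12a, next to Bst2. It fell by 0.27 on the log2 scale (SE 0.06, adjusted p = 0.0201, edgeR), from 68.9 ± 5.39 to 57.2 ± 1.81 CPM (SD, n = 3 each). Mvb12a was called in 2 of 6 fits with 1 library left out (adjusted p = 6.2e-04 to 0.113). Rnf144a, the neighbour of Rsad2 on the side away from Cmpk2, had a log2FC of -0.018 (SE 0.09). Allc, the next tested gene after Cmpk2, had -1.34 (SE 0.48, adjusted p = 0.0885, edgeR) on few counts. Ifi44l, next to Ifi44, had 0.78 (SE 0.30, adjusted p = 0.105, edgeR). It was higher in all PCBP1-OE libraries than in all controls, but was not called. The median of the 14 neighbours was -0.048, and 4 of the 14 had a log2FC above 0. Ifi44l, Gbp3, Gbp4 and Irgm among the 14 also belong to the lists of GTPases and other antiviral effectors, so the neighbours are not all genes unrelated to the effectors.

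**Figure D5:**
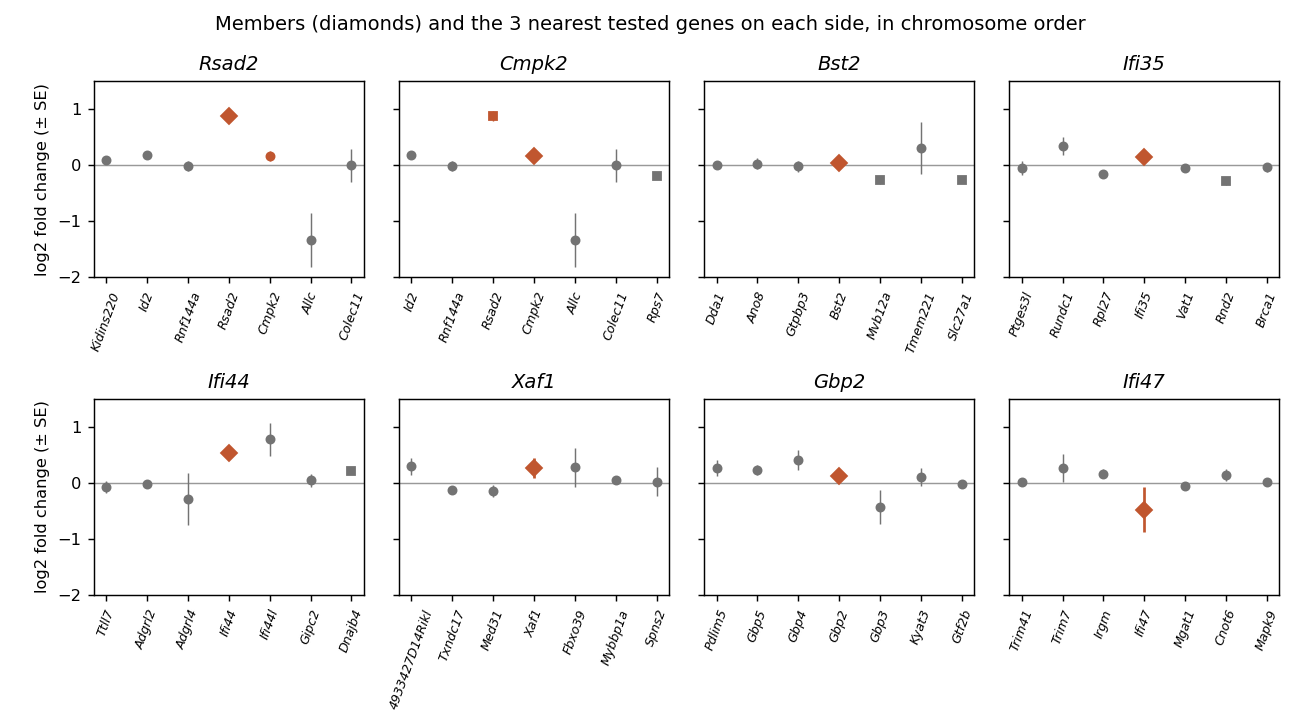
Log2 fold change (± SE) of each effector (diamond) and of the 3 nearest tested genes on each side in chromosome order; squares mark genes called at an FDR of 0.05 and orange marks the effectors. Rsad2 at 0.88 stands beside Rnf144a at -0.018 and Cmpk2 at 0.16.

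The mean of the 8 standardized profiles over the 6 libraries was compared with every other tested gene by Pearson's r, as a description. The closest were Mnda, an interferon-inducible nuclear protein, with an r of 0.998, Agps with 0.981, and Plekhh1, Atp13a4 and Gnaq with 0.980, 0.980 and 0.979. Of these only Gnaq was called (log2 fold change 0.43, SE 0.12, adjusted p = 0.0407, edgeR), and Mnda rested on 19 to 39 counts per library, with a log2FC of 0.72 (SE 0.26). Plekhh1 had 6 to 10 counts per control and 13 to 22 per PCBP1-OE library. These r values are the highest of all other tested genes over only 6 libraries. The mean profile also holds the group difference known when the 8 were chosen, so nothing is read from their size. The effectors themselves followed the mean unevenly, with an r of 0.94 for Rsad2, 0.92 for Ifi35, 0.66 for Bst2, 0.51 for Xaf1 and -0.34 for Ifi47.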

How the data were processed

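RNA-seq counts of 6 libraries labelled as PC12 cells were used, with groups and replicate numbers taken from the titles. The authors deposited raw counts of uniquely mapped reads per gene; per the methods, reads were trimmed with FASTX-Toolkit and aligned to Rnor_6.0 with TopHat2. The submitters' processing notes name GRCh38, and the rat gene identifiers of the table do not belong to it. No source used here names the counting tool or its strand setting. Gene positions are given by chromosome from the table, and promoter sequences are from RefSeq on GRCr8.

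Low genes were removed with filterByExpr (at least 10 counts, 15 in total), which left out 7985 genes, and the rest, scaled by TMM, went into the quasi-likelihood test of edgeR 4.0.16 under R 4.3.3. P-values were adjusted by Benjamini-Hochberg over 12624 genes, and a gene with an FDR of 0.05 or less was called. The scripts were tested on simulated data. 1 item of the lists is not reported here. The 8 genes and all lists were chosen with earlier results of these data known. Named genes are the 8, up to 6 called genes per list with the largest change, the largest uncalled one, and the 5 most alike in profile; other list genes were named after their values were seen. Alternatives were RLE and upper-quartile scaling, 2 filters, DESeq2 1.42.0, limma-voom (limma 3.58.1), a replicate block, fits that omit 1 library and, for likeness within groups, a pseudocount of 0.1.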

Additional observations from a re-analysis of the deposited data

How the results depend on the processing

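The median log2 fold change of the effectors was 0.13 to 0.19 under the alternatives of scaling, filter, test, block and left-out library; the stricter filter removed Ifi47, so its value of 0.16 is over 7 genes. Their median r within groups was 0.29 with RLE scaling and 0.30 with a pseudocount of 0.1, the 2 alternatives run for it. When 1 library at a time was omitted, 2 to 4 effectors were called higher. The share of all genes called higher in the same fits was 0.281% to 10.9%. Higher and lower together, the number called was 0 to 2 for the GBP and IRG GTPases and 2 to 13 for the other antiviral effectors. It was 0 to 2 for the partners, 0 to 3 for the ISGF3 and IRF factors and 0 to 2 for the neighbours. Over all 12815 genes tested, 36 were called higher and 12 lower without control replicate 2, the fewest. Without control replicate 3, 1395 of 12815 were called higher and 1465 lower, the most. Without a filter on low counts 2 GTPases were called, all higher, and 3 ISGF3 and IRF factors, 2 higher and 1 lower. In that fit 2 neighbours were called, all lower, beside 1079 genes called higher and 1011 lower of all 20609. DESeq2 called 2 of the ISGF3 and IRF factors, all higher, and 2 neighbours, all lower. Over all 10616 genes it tested, 616 were called higher and 772 lower. The causes were not tested.

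With the replicate number as a block, 1 effector, Rsad2 (adjusted p = 0.0235), was called, and Ifi44 was at 0.0717, in a range of 5.5e-08 to 0.0717 over its alternatives. Under this replicate block edgeR called 0 genes of each of the 4 lists and of the neighbours. Over all 12624 genes it called 14 higher and 2 lower. At an unadjusted p under 0.05 there were 3 GTPases, 14 antiviral effectors, 2 partners, 4 factors and 4 neighbours. The share of all genes at that unadjusted p was not taken, so nothing is read from these counts. Deviations of libraries with the same number had r of -0.10, -0.081 and -0.11, and those of libraries with different numbers 0.015 to 0.083. Deviations from a mean of 3 libraries cancel within each group, so these values cannot settle whether same-numbered libraries were paired. Without Ifi47, a choice made after the data were seen, 2 effectors were called and the median was 0.16. At 8 to 22 counts per library, the difference of Ifi47 is limited by depth.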
